A study of Mus musculus with 76 samples.

Results

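Tumors of the 4T1-control line in mice on doxycycline feed were compared with tumors of the parental 4T1 line in mice on ordinary feed, all injected with alum alone. The members were taken by group label, 4T1-control with alum (6 tumors) and unmodified 4T1 with alum (5 tumors), which gave 11 of the 38 tumors and 22 of the 76 libraries of the series. The series measured RNA of whole subcutaneous mouse tumors in a study of catalase, an enzyme that breaks down hydrogen peroxide, delivered into tumors on alum particles or made inside tumor cells. In that study the 4T1-control line is the reference for cells that make human catalase, so the comparison with the parental line measures how far that reference stands from unmodified cells.

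4T1 is an established mouse mammary carcinoma line of BALB/c origin, and the hosts were female BALB/c mice aged 6 to 12 weeks. Each mouse of either group received 500000 cells under the skin of the flank. By the labels doxycycline feed began on day 4 for 4T1-control tumors, 100 ug of alum was injected into every tumor on day 6, and the tumors were taken on day 8. The published account of the sequencing experiment places feed, injection and harvest each a day later than the labels, and the labels are followed here. The 4T1-control cells had been transduced with a lentivirus carrying green fluorescent protein (GFP) under a doxycycline-inducible promoter (vector pCW57.1), selected with puromycin, exposed to doxycycline and sorted for GFP. They are a sorted population and are not described as a single clone. Parental cells went through none of these steps and their hosts ate no doxycycline. Viral integration, puromycin selection, the sort, GFP, the doxycycline-responsive activator and the drug itself therefore cannot be told apart in this comparison. The deposited table holds mouse genes, so GFP, the activator and the puromycin resistance gene were not measured.

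Doxycycline is a tetracycline that blocks bacterial ribosomes and, at higher exposure, the related ribosomes of mitochondria, and it also inhibits matrix metalloproteinases. In inducible systems it switches on a transactivator that drives the inserted gene. 4T1 cells keep an epithelial program with simple keratins, the adhesion protein Epcam, E-cadherin, claudins of the tight junction and desmosomal cadherins.

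Every tumor was sequenced as technical replicates 1 and 2, prepared by a 3′ digital gene expression protocol in which reads come from the end of polyadenylated transcripts. The values are estimated counts per gene, which were summed over the technical replicates, so that the tumor is the unit of replication. The 5 parental tumors had totals of 2713959, 3009678, 5531102, 6992563 and 4074328 counts. Totals of the 6 4T1-control tumors had a lowest value of 493086, a median of 3523324 and a highest value of 4569525. Control tumor 2 held the lowest total, and the other 5 control tumors lay between 2671019 and 4569525, inside the range of the parental tumors apart from control tumor 1. On the log2 scale mean totals differed by -0.68, and an exact two-sided permutation test gave p 0.316 (adjusted 0.316). Without control tumor 2 that difference was -0.20, in the shared pool it was -1.05, and it was -2.85 in technical replicate 1 alone and 0.96 in replicate 2 alone.

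The technical replicates were filled unequally, and in opposite ways in the compared groups. Replicate 1 libraries of 4T1-control tumors held 46233 to 1257131 counts (median 529696) and their replicate 2 libraries 321714 to 4367636 (median 2763366). In parental tumors replicate 1 held 820657 to 6551658 counts (median 3194276) and replicate 2 440905 to 1893301 (median 973306). Replicate 2 thus supplied 69.8%, 53.6%, 17.6%, 6.31% and 21.6% of the counts of the 5 parental tumors. In 4T1-control tumors it supplied 56.3% at the lowest, 79.4% at the median and 99.0% at the highest. Control tumors all drew more than 50% of their counts from replicate 2, which only parental tumors 1 and 2 also did, so that the groups overlapped. The difference in means was 44.4 percentage points (exact permutation test, p 0.0130, adjusted over 6 measures 0.0779), and 63.0 points among the tumors that shared a sequencing pool (exact permutation test, p 0.0119).

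Index tags divide the libraries into sequencing pools. The pool of a tumor was read from the tag of its technical replicate 1 library and applied to both its libraries. Tags of replicate 2 libraries were not used, so a shared pool is not shown for them. Parental tumors 1 and 2 were in pool 1, whereas parental tumors 3, 4 and 5 and all 6 4T1-control tumors were in pool 2, so values within the shared pool rest on 6 against 3 tumors. They also carry a wider gap in replicate 2 share, 63.0 points against 44.4 over all tumors, without overlap between the groups. Libraries under 0.25 of the median library total (under 518752 counts) were control replicate 1 of tumors 2, 4 and 6, control replicate 2 of tumor 2 and parental replicate 2 of tumor 4. Between the libraries of a tumor, log2 levels correlated over 12431 genes with r from 0.718 to 0.931 in 4T1-control and from 0.891 to 0.937 in parental tumors. The points are genes of the same tumor and differ in depth. Control tumor 2 (r 0.730) and control tumor 6 (r 0.718) had the weakest pairs. Over the 500 most variable genes control tumor 2 lay alone on the first principal component at 82.9, while the other 10 tumors lay between -11.8 and -2.66. That component held 64.5% of the variance.

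Markers of the 4T1 tumor cell were present in all 11 tumors. Levels are given as CPM, which are counts scaled to a common library size with factors from trimmed means over all 27 4T1 tumors. The summed level of the 12 epithelial markers was 3160, 3196, 2235, 2721 and 2458 CPM in the parental tumors. It was 1731 at the lowest, 2289 at the median and 2974 at the highest in 4T1-control tumors, so the groups overlapped. Krt18, a keratin of simple epithelium, was the most abundant marker at 1156, 1201, 890.0, 1071 and 990.8 CPM in the parental tumors. In 4T1-control tumors Krt18 had a lowest level of 751.5, a median of 924 and a highest level of 1228 CPM. None of the 12 markers was at 0 in all 11 tumors, and 9 had enough counts to be tested.

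No single gene passed the main test. With edgeR's quasi-likelihood test and Benjamini-Hochberg adjustment, 0 of 12431 genes tested were called at an adjusted p of 0.05 (0%), and the smallest adjusted p was 0.0593. At an unadjusted p under 0.05 there were 1307 genes (10.5%), of which 726 were higher (5.84%) and 581 lower (4.67%) in 4T1-control tumors. The median log2 fold change over all genes was -0.01, with quartiles of -0.18 and 0.17, and 102 genes (0.821%) had an absolute value over 1. All 6 control tumors lay above all 5 parental tumors for 29 genes (0.233%) and below them for 143 (1.15%). DESeq2 on the same counts called 15 genes (0.121%), 7 higher and 8 lower. Its own filter on low counts gave an adjusted p to only 4476 of the genes, so that the others could not be called, and the 15 are 0.335% of those 4476. It had 1315 genes at an unadjusted p under 0.05. The voom method of limma with sample quality weights called 12 (0.0965%), 2 higher and 10 lower, with 1770 at an unadjusted p under 0.05.

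The 4 genes called by both other tools were Glg1, Arpc1b, Jpt1 and Rpl15-ps6. DESeq2 also called Gstp2, Selplg, Olfr847, Pla2g4b, Gm38047 and Gm48146 higher and Rpl18, Eif5a, Arf1, Krt14 and Coro2a lower. The voom method also called Cldn3, Gm38194, H1f5, Plec, Senp6, Wrn and ENSMUSG00000106106 lower and ENSMUSG00000105361 higher.

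The authors left out some technical replicates of the series for low depth without naming them, and all 22 libraries were used here. Leaving out the low-depth libraries listed above, which drops control tumor 2, gave 14 calls by edgeR, all lower, among them Glg1 (adjusted p 0.0151), Ntmt1 (adjusted p 0.0461) and Arpc1b (adjusted p 0.0461). This choice also widened the gap in mean replicate 2 share from 44.4 to 50.5 points, with 83.0% in 4T1-control and 32.5% in parental tumors. The part of that gap in the 14 calls was not tested. Single tumors changed the number of calls by edgeR as well. Leaving out control tumor 2, the shallowest, gave 6 genes, all lower (Glg1, Supt16, H1f5, Gm38194, Gm43305 and ENSMUSG00000106106). Without control tumor 3 there were 2 calls, Glg1 and Gm38194, and without control tumor 4 there was 1, Gstp2. Without parental tumor 2 the only call was ENSMUSG00000105361, without parental tumor 3 it was Gm38194, and without parental tumor 5 the 3 calls were Glg1, Gm38194 and Rpl15-ps6. Leaving out any other tumor gave 0. The genes named from these calls outside the naming rule were chosen after their values were seen. Genes under an unadjusted p of 0.05 numbered from 959 without control tumor 1 to 1694 without control tumor 3. Genes with all control tumors above all parental tumors rose in number from 29 to 157 without control tumor 3, the highest of the leave-one-out counts, and those below rose from 143 to 266. Fewer tumors are more often separate by construction, and the lowest of those counts were 35 above without control tumor 4 and 166 below without control tumor 5.

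Glg1 (ENSMUSG00000003316, GRCm38 chromosome 8, 111154421 to 111259216) encodes a Golgi sialoglycoprotein that binds fibroblast growth factors and selectin, and it had the smallest p of the protein-coding genes. Its level was 51.8, 76.9, 61.5, 64.3 and 54.5 CPM in the parental tumors. In 4T1-control tumors it was 29.0 at the lowest, 31.0 at the median and 41.5 at the highest. Every control tumor lay below every parental tumor. The log2 fold change of Glg1 was -0.90 (SE 0.15), with an adjusted p of 0.0593 by edgeR, and -0.81 in the shared pool. In each technical replicate taken alone it was smaller, -0.54 in replicate 1 and -0.53 in replicate 2, and the groups overlapped in either (in replicate 1, as CPM of the library total, Glg1 reached 62.05 in control and fell to 54.5 in parental tumors). Over the 15 alternatives that left out no single tumor the log2 fold change of Glg1 ran from -0.96 to -0.30. Median levels were 44.7 CPM in 4T1-CAT tumors with alum, 60.3 in 4T1-CAT and 73.4 in parental tumors with CAT-ABP. Within the same tumors Glg1 was also lower in replicate 2 than in replicate 1 by a log2 fold change of -0.94.

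The other 4 genes named as lowest by p were Ntmt1, Arpc1b, Cldn3 and Eif5a, none called by edgeR. Ntmt1, which methylates the N terminus of proteins, had 16.2, 21.4, 21.8, 17.6 and 25.9 CPM in parental tumors and 8.07, 9.64 and 12.6 CPM at the lowest, median and highest in 4T1-control tumors. The groups did not overlap, and the log2 fold change had a 95% interval from -1.40 to -0.60 (SE 0.19, adjusted p 0.132), with -1.03 in the shared pool. Ntmt1 was at -0.39 in replicate 1 alone, -0.81 in replicate 2 alone and -0.06 in the shared pool with replicate 2 alone. Arpc1b, a subunit of the Arp2/3 complex that nucleates branched actin, had 135.9, 107, 141, 137 and 136 CPM in parental tumors and 71.1, 79.9 and 97.0 CPM at the lowest, median and highest in 4T1-control tumors. It did not overlap either, with a log2 fold change of -0.66 (SE 0.13, adjusted p 0.132, shared pool -0.69). Replicate 1 alone gave 0.16 for Arpc1b, opposite in sign, and replicate 2 alone gave -0.69. Eif5a, a translation elongation factor that carries hypusine, had 72.6, 54.6, 85.4, 72.0 and 90.2 CPM in parental tumors and 29.3, 44.2 and 56.8 CPM at the lowest, median and highest in 4T1-control tumors. Parental tumor 2 lay below the highest control tumor, and the log2 fold change was -0.75 (SE 0.16, adjusted p 0.188), with -0.03 in replicate 1 alone and -0.81 in replicate 2 alone.

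Cldn3 (ENSMUSG00000070473, GRCm38 chromosome 5, 134986214 to 134987472) encodes claudin 3, a sealing protein of the epithelial tight junction. Cldn3 levels were 9.35, 9.50, 9.19, 9.84 and 12.0 CPM in the parental tumors, and 2.12 at the lowest, 4.58 at the median and 5.51 at the highest in 4T1-control tumors. No control tumor reached the lowest parental tumor. The log2 fold change was -1.27 (SE 0.27, unadjusted p 1.4e-04, adjusted p 0.188), and -1.28 in the shared pool. Leaving out any 1 tumor gave -1.39 to -1.11, and the fit with technical replicate as covariate, described below, gave -0.80. The gene rests on few counts, 2 to 21 per control tumor and 26 to 77 per parental tumor, too few to pass the filter on low counts within a single technical replicate. Within a replicate the groups overlapped. As CPM of the library total for Cldn3, replicate 1 held 0 to 11.7 in control and 7.90 to 14.3 in parental tumors, and replicate 2 held 0 to 4.81 and 2.27 to 12.3.

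Krt14 (ENSMUSG00000045545, GRCm38 chromosome 11, 100203162 to 100207548), a keratin of basal epithelium, was 64.0, 55.5, 41.9, 39.8 and 67.1 CPM in the parental tumors. In 4T1-control tumors Krt14 was 12.7 at the lowest, 27.3 at the median and 36.3 at the highest, below every parental tumor. Its log2 fold change was -1.02 (SE 0.22, adjusted p 0.188), and -0.87 in the shared pool, -0.64 in replicate 1 alone and -1.16 in replicate 2 alone. As CPM of the library total, Krt14 in replicate 1 reached 86.5 in a control tumor, above the lowest parental value of 41.8, while in replicate 2 the highest control value of 29.3 lay just under the lowest parental value of 29.7. The replicate 1 library of control tumor 6 held only 46233 counts, and a level such as 86.5 CPM rests on few counts at that depth. Krt7, a keratin of ducts, was 152, 149.9, 150.1, 131 and 142 CPM in the parental tumors and 99.3, 117 and 128 at the lowest, median and highest in 4T1-control tumors. These groups were separate too, at a log2 fold change of -0.30 (SE 0.12, adjusted p 0.375) and -0.22 in the shared pool. Krt19, another keratin of ducts, had a log2 fold change of -1.15 (adjusted p 0.285), but its groups overlapped and it had 1 to 18 counts per control tumor.

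The remaining epithelial markers overlapped between the groups. Log2 fold changes were -0.37 for Epcam, -0.32 for the splicing factor Esrp1, -0.30 for Cd24a, -0.25 for Krt8, -0.15 for Krt18 and -0.14 for Cdh1, which encodes E-cadherin. Within the shared pool Krt8 (0.05), Krt18 (0.01) and Cdh1 (0.01) were slightly above 0. Of the 9 epithelial markers tested, 9 had a negative log2 fold change over all tumors (6 within the shared pool), 3 were at an unadjusted p under 0.05 and 2 did not overlap between groups. Over all genes 10.5% were under that p (4.67% lower), and 1.15% lay lower without overlap. The median over the 9 was -0.30, against -0.01 over all genes, and -0.17 in the shared pool. In whole tumors fewer tumor cells and less RNA per tumor cell cannot be told apart.

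Among 13 tested genes of tight and adherens junctions and desmosomes, 10 were lower and 3 were at an unadjusted p under 0.05, each without overlap, beside the same shares over all genes (4.67% lower under that p, 1.15% lower without overlap). The median was -0.22, and -0.23 in the shared pool. Besides Cldn3 these were the desmosomal cadherins Dsg2 and Dsc2. Dsg2 was 12.9, 13.1, 12.6, 13.7 and 13.4 CPM in the parental tumors and 7.43, 8.09 and 11.3 CPM at the lowest, median and highest in 4T1-control tumors. The highest control tumor stayed under the lowest parental tumor, and the log2 fold change was -0.65 (SE 0.19, adjusted p 0.262, shared pool -0.62). Dsc2 had 14 to 36 counts in parental tumors and 0 to 8 in 4T1-control tumors, where 2 tumors had none, with a fitted log2 fold change of -1.81. Zeb1, a repressor of epithelial genes, was at -0.89 (SE 0.26, adjusted p 0.262, not called by edgeR). Its part in the levels of the epithelial genes was not tested. The mesenchymal transition list as a whole had a median of -0.14 over 12 tested genes.

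**Figure D1:**
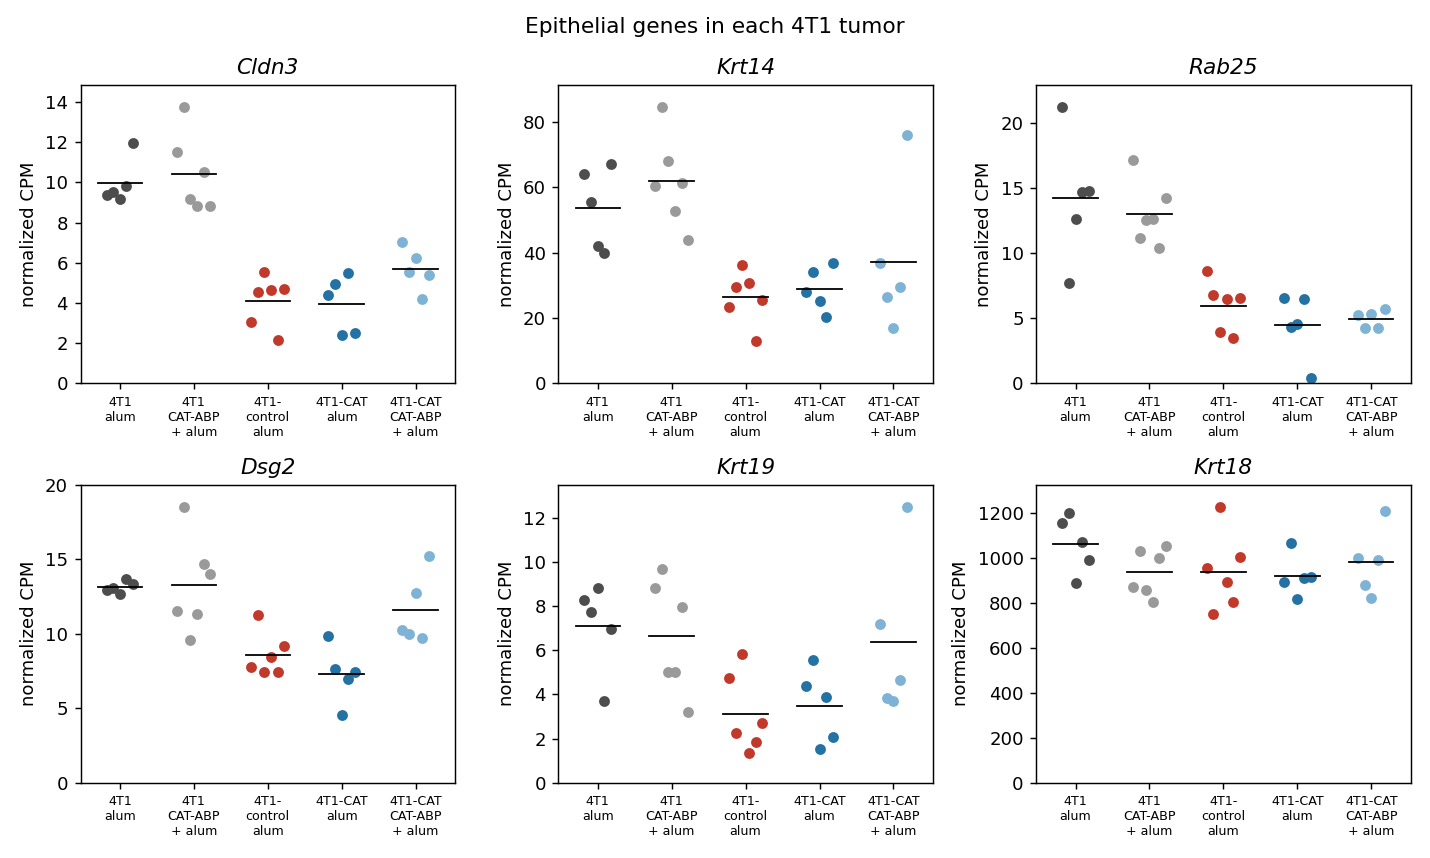
Levels of epithelial genes in CPM for every tumor of the 5 4T1 groups, 1 point per tumor, with parental and engineered lines marked. For Cldn3 all engineered tumors (2.12 to 7.01) lie below all parental tumors (8.82 to 13.8), while Krt18 levels overlap.

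Tumors outside the comparison gave a view of the same genes without shared animals. 4T1-CAT is the sister line, made with the same vector carrying human catalase with GFP, and its mice also ate doxycycline feed. It was compared with parental 4T1 where both had received an alum-binding form of catalase (CAT-ABP, 20 ug) with alum, 5 against 6 tumors. In that comparison engineering and doxycycline come together with catalase inside the cells, and all engineered tumors were in pool 2 and all parental tumors in pool 1, so pool and line cannot be told apart there. Its replicate 2 share was 25.7% (SD 15.5) in the engineered and 34.2% (SD 18.4) in the parental group, a small gap in the opposite direction to that between 4T1-control and parental tumors. The third engineered group, 4T1-CAT with alum alone, had 63.6% (SD 5.40, 58.4% to 69.7%), so that counts which include it carry an imbalance of the same direction as the 4T1-control comparison.

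edgeR called 2 of 13235 genes there (0.0151%), Rab25 and Rhox5, both lower, and both are described here after their values were seen. At an unadjusted p under 0.05 there were 566 genes (4.28%), and DESeq2 called 8, all lower. The 8 were Rab25, Rhox5, Cldn3 (adjusted p 0.0363), Esrp1 (adjusted p 0.0363), Entpd4b, Gm28502, Gm48765 and ENSMUSG00000097289, and voom called 5 of them, without Cldn3. Rab25 (ENSMUSG00000008601, GRCm38 chromosome 3, 88542029 to 88548300) encodes an epithelial small GTPase of recycling endosomes. In the parental alum tumors Rab25 was 21.2, 7.72, 12.6, 14.7 and 14.7 CPM, and in 4T1-control tumors 3.45 at the lowest, 6.46 at the median and 8.63 at the highest. Parental tumor 2 lay under the highest control tumor. The log2 fold change was -1.27 (SE 0.28, unadjusted p 2.3e-04, not called by edgeR), against -1.42 (adjusted p 0.0118) in the other tumors. Rhox5, a homeobox gene of the X-linked reproductive cluster, had a log2 fold change of -2.83 (adjusted p 0.0118) in the other tumors and too few counts in the 4T1-control comparison to be tested, 0 to 4 per control tumor and 7 to 28 per parental tumor. Both calls were lost when 4T1-CAT tumor 1, 3 or 4 of that group was left out, which gave 0 calls. They were also lost with the replicate number as a block. Rhox5 was not called with a mean of at least 20 counts or with technical replicate as covariate.

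The levels of these genes were also set side by side over the 3 engineered and 2 parental 4T1 groups, a count that includes the tumors from which the genes were chosen. For Cldn3 all 16 engineered tumors, at 2.12 to 7.01 CPM, lay below all 11 parental tumors, at 8.82 to 13.8 CPM. For Krt14, Rab25 and Rhox5, 15 of the 16 engineered tumors lay below the lowest parental tumor. For the type I interferon target Oas1g it was 14 of 16, for Glg1 12, for Rpl18 11, for Zeb1 and Gm38194 10 and for Dsg2 9. It was 9 as well for Dsc2, Syne1, Ier3, Irf7, Top2a and Hsp90ab1. Among the other epithelial markers it was 6 for Epcam and Krt19, 4 for Krt7, 2 for Krt8, Krt18, Cdh1 and Esrp1, and 1 for Cd24a, and it was 6 for Arpc1b, 5 for Eif5a and 1 for Ntmt1. Over the 12431 genes tested, all 16 lay below for 1 gene, Cldn3 (0.00804%), and at least 15 for 4 (0.0322%), with none above to that extent. These 4 were Cldn3, Krt14, Rab25 and 4632415L05Rik, the last named after its values were seen. Rhox5 was not among the genes tested and stands outside that count. In the other direction, 11 of the 16 lay above the highest parental tumor for St3gal1, 9 for Gstp2 and 8 for Slpi and Cd3g.

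Without the tumors of the 4T1-control comparison, 10 engineered and 6 parental tumors are left, all 10 in pool 2 and all 6 in pool 1. The 10 include the 5 tumors of 4T1-CAT with alum alone, whose replicate 2 share of 63.6% stood above the 34.2% of the 6. All 6 parental tumors had received CAT-ABP with alum, so the sets differ in injected treatment as well. All 10 lay below the lowest of the 6 for Cldn3, Rab25 and Rhox5, of which Rab25 and Rhox5 were called from some of these tumors. It was 9 of 10 for Krt14 and for Il1a, 8 for Oas1g and for Por, 7 for Rpl18 and Zeb1 and 6 for Glg1 and Top2a. For Zeb1, 2 engineered tumors also lay above the highest of the 6. Lower counts were 5 for Epcam, 4 for Krt7 and Dsg2, 3 for Eif5a, 2 for Krt19, 1 for Esrp1 and 0 for Ntmt1, Arpc1b, Krt8, Krt18, Cdh1 and Cd24a. Over the same 12431 genes, all 10 lay below for 8 (0.0644%) and at least 9 for 33 (0.265%). The epithelial genes were thus not alone in this. Above the highest of the 6 lay all 10 for 3 of these genes and at least 9 for 17. Among named genes it was 8 of 10 above for Slpi and Mgl2 and 7 for St3gal1 and Ldha.

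The log2 fold changes in the tumors with CAT-ABP were -0.94 for Cldn3 (unadjusted p 2.1e-04), -0.76 for Krt14, -0.40 for Krt7, -0.75 for Esrp1, -0.25 for Dsg2, -0.30 for Glg1 and -0.81 for Oas1g. They were 0.17 for Cd24a, 0.08 for Krt8, 0.05 for Cdh1 and 0.04 for Krt18. The list medians there were -0.11 for the epithelial markers and 0.05 for the junction genes. The engineered tumors of the count over 16 were all in pool 2, with 3 of the 11 parental tumors.

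The engineered tumor that was not low for Krt14, 4T1-CAT tumor 5 with CAT-ABP at 76.1 CPM, was also high in markers of epidermis and hair, a tissue in which Krt14 is a main keratin. Its summed level of the 12 markers was 285.5 CPM, against 10.1 to 29.6 in the other 26 tumors. All 12 markers were highest in that tumor, none was at 0 there, and the most abundant was Krtdap at 129 CPM. A fit without that tumor, added after the data had been seen, gave log2 fold changes of -1.20 for Krt14, -0.92 for Cldn3 and -1.47 for Rab25. Leaving out the engineered tumor with the highest Krt14 level lowers Krt14 by construction, so that value decides nothing about Krt14. In the same fit Krt8 (-0.03), Krt18 (-0.04) and Cdh1 (-0.05) fell slightly below 0. The part of skin in the Krt14 level or in any other value of that tumor was not tested.

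Genome-wide, the engineered-minus-parental differences of these sets, which have no tumor in common, showed no positive correlation. Over 12372 genes tested in both, log2 fold changes had r -0.03 and rho -0.05, with 47.5% of the same sign. The points are genes measured in the same libraries and are not independent. At an unadjusted p under 0.05 in both were 85 genes, 6.54% of the 1299 in the 4T1-control comparison and 16.2% of the 524 in the other. Of these, 45 were lower in both, 37 ran in opposite directions and 3 were higher in both. Of the 37, 35 were higher in 4T1-control and lower in the other set, so most of the 85 were lower in the other set whichever way they ran here. Of the 1299 genes, 40.1% had the same sign in the other set, less than the 47.5% of all genes. The 3 were Gstp2, St3gal1, a sialyltransferase, and Slpi, a secreted protease inhibitor, chosen after their values were seen, with log2 fold changes of 1.31, 0.40 and 0.61 in the 4T1-control comparison and 0.58, 0.52 and 0.67 in the other. Slpi turned to -0.07 within the shared pool when replicate 1 was taken alone.

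A test of the difference between these differences called 0 of 13682 genes by edgeR (0%), with a smallest adjusted p of 0.0863, 1149 genes at an unadjusted p under 0.05 and 1 call by DESeq2, Gm21811, named after its values were seen. For the epithelial genes that difference was -0.34 for Cldn3 (unadjusted p 0.281), -0.26 for Krt14 (unadjusted p 0.511) and 0.15 for Rab25 (unadjusted p 0.662).

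The 5 genes with the smallest p among those higher were Rpl15-ps6, Gstp2, Selplg, Olfr847 and Pla2g4b, again none called by edgeR. Gstp2 encodes a glutathione transferase, and lies in a cluster with a near-identical gene, so that the split of reads between them is uncertain. It had 23.7, 39.2, 40.8, 42.8 and 52.6 CPM in parental tumors and 41.8, 89.9 and 172 CPM at the lowest, median and highest in 4T1-control tumors. Control tumor 4 lay below parental tumors 4 and 5, and the log2 fold change was 1.31 (SE 0.27, adjusted p 0.188, shared pool 1.18). Rpl15-ps6 is a processed pseudogene of a ribosomal protein gene, whose reads may come from the parent gene. It had 35.6, 35.3, 43.8, 31.8 and 66.5 CPM in parental tumors and 57.6, 81.9 and 121 CPM at the lowest, median and highest in 4T1-control tumors. Only parental tumor 5 reached into the control range, and the log2 fold change was 1.05 (SE 0.21, adjusted p 0.132, shared pool 0.95).

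Selplg, the selectin ligand of leukocytes, had 57.9, 41.0, 42.1, 64.3 and 44.2 CPM in parental tumors and 61.6, 81.4 and 98.4 CPM at the lowest, median and highest in 4T1-control tumors. Control tumor 3 lay below parental tumor 4. The log2 fold change of Selplg was 0.74 (SE 0.16, unadjusted p 2.3e-04, not called by edgeR but called by DESeq2). It was -0.08 in the tumors with CAT-ABP (test of the difference, unadjusted p 0.00292, not called by edgeR). Olfr847, annotated as an olfactory receptor, and Pla2g4b, a cytosolic phospholipase, had log2 fold changes of 0.72 and 0.73, both with an adjusted p of 0.262. They too stood near 0 or below in the other tumors, at -0.09 and -0.14. All 5 of these genes were also higher in replicate 2 than in replicate 1 of the same tumors, by log2 fold changes of 0.41 to 0.73.

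That parallel held widely. Comparing replicate 2 with replicate 1 within tumors, 607 genes were higher and 144 lower in replicate 2 at an adjusted p of 0.05. Across 12431 genes this shift correlated with the 4T1-control versus parental log2 fold change at r 0.43, a description over genes that share all libraries. Of the 726 genes higher in 4T1-control at an unadjusted p under 0.05, 690 (95.0%) were also higher in replicate 2, against 48.3% of all genes. Of the 581 lower genes, 511 (88.0%) were also lower in replicate 2, against 51.7% of all genes. Both contrasts use the same libraries, from which these genes were also picked. The shares of all genes are therefore not the values to expect without a real difference. How much of the group difference comes from the mix of technical replicates was not tested beyond the fits that follow.

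**Figure D2:**
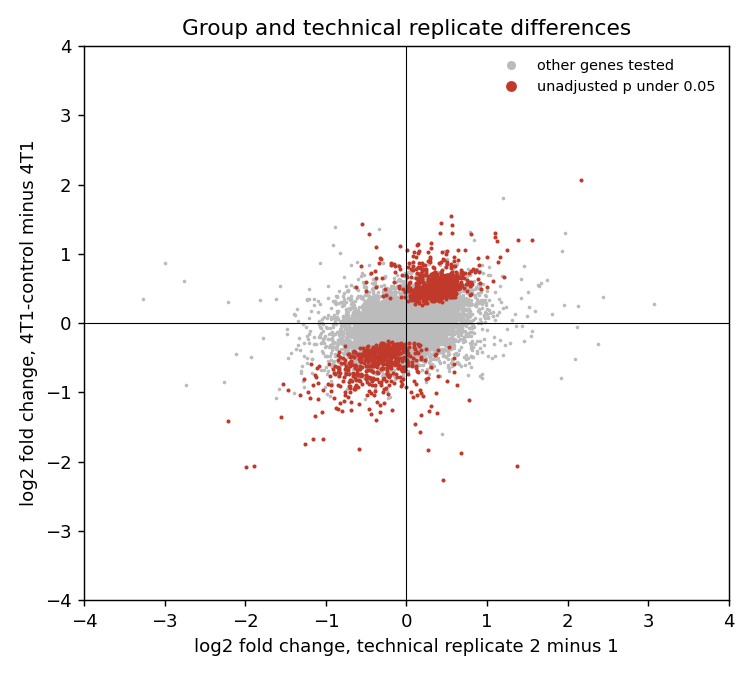
For each of 12431 genes, the log2 fold change of technical replicate 2 over replicate 1 within tumors is set against the log2 fold change of 4T1-control over parental tumors. The cloud rises from lower left to upper right, with r 0.43 over genes, and 1 gene lies outside the axes.

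A fit with each library as a sample, the technical replicate as a covariate and the tumor as a block was added after the data had been seen. It tested 9503 genes and called 2, ENSMUSG00000106106 lower and ENSMUSG00000105361 higher. In it 443 genes were at an unadjusted p under 0.05, against 1307 of 12431 in the fit on summed tumors, and 344 genes were in both sets. The fits differ in tool, unit, block and genes tested as well as in the covariate. Log2 fold changes in the 2 fits correlated at r 0.822 over genes. Cldn3 was at -0.80 (unadjusted p 0.0148), Krt14 at -0.98 (unadjusted p 1.6e-04, adjusted p 0.521), Rab25 at -1.29 (unadjusted p 0.00454), Dsg2 at -0.74, Glg1 at -0.49, Ntmt1 at -0.53 (unadjusted p 0.0614) and Arpc1b at -0.28.

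Gene classes differed in their medians. Long noncoding RNAs had a median log2 fold change of 0.27 over 635 tested genes, with 134 higher (21.1%) and 8 lower (1.26%) at an unadjusted p under 0.05. Over all genes 5.84% were higher and 4.67% lower at that p. Loci held in the annotation as not yet verified (class TEC) had a median of 0.40 over 285 tested, with 92 higher (32.3%) and 5 lower (1.75%). Protein-coding genes had a median of -0.03 over 10954 tested, with 456 higher (4.16%) and 545 lower (4.98%). The medians of the noncoding classes were 0.30 and 0.46 in the shared pool, and 0.22 and 0.25 in the fit with technical replicate as covariate. They were 0.43 and 0.57 in replicate 1 alone and 0.15 and 0.18 in replicate 2 alone. Together these classes took 3.90%, 3.62%, 3.82%, 4.52% and 3.62% of the counts of parental tumors, and 3.75% at the lowest, 4.64% at the median and 6.70% at the highest in 4T1-control tumors. The groups overlapped, with a difference of 0.857 percentage points (exact permutation test, p 0.0779, adjusted 0.117). Without control tumor 2 it was 0.467 points, and in replicate 1 alone 1.46 points (exact permutation test, p 0.0216).

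Protein-coding genes took 85.5%, 85.9%, 85.1%, 86.0% and 84.7% of counts in the parental tumors and 81.5%, 84.6% and 86.1% at the lowest, median and highest in 4T1-control tumors. The ranges overlapped, with a difference of -1.18 points (exact permutation test, p 0.182, adjusted 0.218), and of -0.621 points without control tumor 2. The 10 most abundant genes held 10.4%, 9.87%, 11.8%, 9.08% and 12.3% in parental tumors and 10.4%, 12.9% and 15.0% in 4T1-control tumors in the same order. These ranges overlapped as well, 2.15 points apart in the mean (exact permutation test, p 0.0563, adjusted 0.113), and 0.355 points apart in replicate 1 alone.

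Mitochondrially encoded transcripts took 4.47%, 4.22%, 4.38%, 3.68% and 4.76% of the counts in the parental tumors. In 4T1-control tumors the share was 4.16% at the lowest, 5.37% at the median and 6.34% at the highest. Control tumor 2 was highest, and control tumor 3 fell inside the parental range. The mean share was 5.36% (SD 0.779) against 4.30% (SD 0.400), a difference of 1.06 points (exact permutation test, p 0.0281, adjusted over 6 measures 0.0844), and of 1.09 points in the shared pool (exact permutation test, p 0.0833). The replicates differed when taken alone, a split chosen after the data were seen. In replicate 1 the mean share was 4.27% in 4T1-control and 4.46% in parental tumors, a difference of -0.197 points (exact permutation test, p 0.662). In replicate 2 the means were 5.59% and 4.27%, a difference of 1.31 points (exact permutation test, p 0.0130). Over all tumors the difference ran from 0.867 without control tumor 2 to 1.30 without control tumor 3, and the exact p exceeded 0.05 without control tumor 1, 2, 5 or 6 or parental tumor 2 or 4.

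Among the transcripts themselves mt-Cytb, a subunit of complex III, had a log2 fold change of 0.63 (SE 0.21, adjusted p 0.284), and mt-Atp6, of the ATP synthase, 0.58 (adjusted p 0.344). In replicate 1 alone mt-Cytb fell to 0.14 and mt-Atp6 to -0.23. Over the 13 tested mitochondrial transcripts the median was 0.10, with 7 higher and 6 lower. Nuclear subunits of oxidative phosphorylation had a median of 0.05 over 28 genes and only cytochrome c (Cycs, 0.41) at an unadjusted p under 0.05. Factors of mitochondrial translation, the process doxycycline blocks, had a median of -0.03 over 22 genes and only the ribosomal protein Mrps5 (-0.51) at that level. Mitochondrial chaperones and proteases had a median of -0.07 over 14 genes, with Dnaja3 at 0.37. The integrated stress response, which follows mitochondrial stress in many cells, had a median of 0.02 over 21 genes, with the serine synthesis enzyme Phgdh lower (-0.44). Metalloproteinases and their inhibitors, another known target of tetracyclines, had a median of -0.01 over 12 genes, none at an unadjusted p under 0.05. Genes of retinoid, xenobiotic and drug response had a median of -0.05 over 10, with the aldehyde dehydrogenase Aldh1a3 at 0.53 and the P450 reductase Por at -0.54. Por turned to 0.42 in replicate 1 alone and 0.05 in the fit with technical replicate as covariate, and to 0.16 and 0.91 in the shared pool with replicate 1 or 2 alone.

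Cat (ENSMUSG00000027187, GRCm38 chromosome 2, 103453849 to 103485160), the mouse catalase gene, which tumor and host cells share, was 41.4, 37.7, 40.2, 46.7 and 34.8 CPM in parental tumors and 38.3, 39.9 and 50.4 CPM at the lowest, median and highest in 4T1-control tumors. The ranges overlapped in part, with the lowest parental tumor below and the highest control tumor above the shared stretch. Its log2 fold change was 0.11 (SE 0.13, 95% interval -0.17 to 0.39, adjusted p 0.856), with 0.14 in the shared pool and 0.11 in the tumors with CAT-ABP. Antioxidant genes under NRF2 and their relatives had a median of -0.06 over 32 tested genes, with the plasma glutathione peroxidase Gpx3 (-0.82) and ferritin light chain Ftl1 (-0.65) at an unadjusted p under 0.05.

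Immune genes showed no call by edgeR in any list, and list members are named here where their unadjusted p was under 0.05, a choice made after the values were seen. Over all genes 4.67% were lower and 5.84% higher at that p, and the median log2 fold change was -0.01. For the type I interferon response the median was -0.14 over 24 tested genes, 17 lower. Oas1g (-0.54), Irf7 (-0.73) and Ifit2 (-0.51) were at an unadjusted p under 0.05. In the tumors with CAT-ABP the median of that list was -0.38. Oas1g, an antiviral oligoadenylate synthetase, was 39.2, 41.6, 39.6, 43.1 and 38.1 CPM in the parental tumors and 13.5, 27.3 and 31.4 CPM at the lowest, median and highest in 4T1-control tumors. Control and parental tumors did not overlap, but Oas1g was at 0.07 in the fit with technical replicate as covariate and at -0.08 and -0.16 in replicates 1 and 2 alone. In the shared pool with replicate 2 alone Oas1g was at 1.13, and Irf7 was at 0.06 and 0.08 there with replicate 1 or 2 alone. For the interferon gamma response, 15 of 16 tested genes were lower with a median of -0.24 (shared pool -0.22), none at an unadjusted p under 0.05, and the median was 0.30 in the tumors with CAT-ABP. Whether these medians differ was not tested. Presentation by MHC class I had a median of 0.03 over 15 genes, with the peptide transporter Tap2 at -0.90 (0.12 in replicate 1 alone), and class II a median of -0.12 over 10, with H2-DMb1 at -0.45 and H2-DMb2 at -0.54, which load peptides. Checkpoint genes had a median of -0.05 over 11, with the costimulator Tnfrsf4 at 0.40.

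Cytokines and chemokines had a median of 0.09 over 21 tested genes. The monocyte attractants Ccl7 (0.42) and Ccl12 (0.49) were higher, and the neutrophil attractant Cxcl2 (-1.84) and the interleukin Il1a (-0.85) lower, at an unadjusted p under 0.05. In the shared pool with replicate 1 alone Ccl7 turned to -0.07 and Ccl12 to -0.11. Acute phase and innate defense genes had a median of 0.03 over 9. Immediate early genes had -0.15 over 15, with Ier3 at -0.51.

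Marker lists of cell types overlapped between groups in summed level in all 16 lists, the epithelial one included. Macrophage markers were the most abundant of the leukocyte lists, at 5840, 4976, 10514, 5603 and 9947 CPM in parental tumors and 5544, 6620 and 10264 CPM at the lowest, median and highest in 4T1-control tumors, with Spp1 the most abundant marker. Their median log2 fold change was -0.09 over 17 genes, with the lipid receptor Trem2 at -0.69 and Ms4a7 at 0.43 (-0.14 in the shared pool with replicate 1 alone). T cell markers were at 68.7, 56.1, 60.7, 57.3 and 65.1 CPM in parental tumors and 54.1, 68.8 and 79.4 CPM in 4T1-control tumors in the same order. The T cell list had a median of 0.24 over 9 tested genes, and 0.86 and 0.11 over those tested in replicates 1 and 2 alone. Cd3g, a chain of the T cell receptor complex, was 5.39, 4.16, 4.79, 3.96 and 5.57 CPM in parental tumors and 5.57, 8.07 and 18.1 CPM in 4T1-control tumors. All control tumors lay above all parental tumors, the closest by less than the rounding shown, at a log2 fold change of 0.83 (SE 0.30, adjusted p 0.323), on 8 to 31 counts per tumor.

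Other leukocyte lists had medians of 0.11 for monocytes (9 tested), -0.18 for neutrophils (9), 0.11 for dendritic cells (10), 0.22 for NK and cytotoxic cells (6), 0.05 for B and plasma cells (2) and 0.27 for mast cells and basophils (4, with the mast cell protease Cma1 at 0.71). Over the members tested in replicate 1 alone the medians were -0.28 for monocytes and -0.28 for NK and cytotoxic cells, opposite in sign. In that replicate 8349 genes passed the filter, against 12431 in the summed tumors. Markers at 0 in all 11 tumors of the comparison were Camp of neutrophils, Tbx21 of NK cells and Cd79a of B cells. Stromal and tissue lists had medians of -0.09 for fibroblasts and matrix (20, with the proteoglycan Dcn at 0.45), -0.13 for endothelial cells (14), -0.19 for pericytes and smooth muscle (7) and 0.24 for adipocytes (6). Skeletal muscle stood at -0.05 (10, with the myosin Myh4 at -1.22), epidermis and hair at -0.23 (2) and erythroid cells at -0.43 (4). The epidermal markers Krt1, Krt77, Lce1a1 and Dsg1a and the erythroid marker Car1 were at 0 in those 11 tumors as well.

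Metabolic and growth lists stayed near the median of all genes. Cholesterol synthesis had a median of -0.12 over 20 genes, with Hmgcs1 (-0.38), Cyp51 (-0.35) and the sterol carrier Stard4 (-0.32) lower and the regulator Srebf2 (0.50) higher at an unadjusted p under 0.05. Fatty acid synthesis had -0.12 over 13, with its regulator Srebf1 (-0.79) and Fasn (-0.38) at an unadjusted p under 0.05, but Fasn was at 0.22 in replicate 1 alone. Hmgcs1 turned to 0.06 in the shared pool with replicate 1 alone. Proliferation genes had -0.11 over 32, with the cell cycle antigen Mki67 (-0.62) and the helicase subunit Mcm6 (-0.29) lower. Glycolysis was at -0.07 over 17, and hypoxia at -0.04 over 20 with the demethylase Kdm3a (-0.53) and the collagen hydroxylase P4ha1 (-0.38) lower, though P4ha1 was at 0.40 in the shared pool with replicate 2 alone.

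The unfolded protein response was at 0.08 over 19 tested genes, heat shock proteins at 0.05 over 14, p53 targets at 0.01 over 15 and clock genes at 0.06 over 13. Ribosomal proteins had a median of 0.03 over 30, with Rpl18 at -0.62. Rpl18 was 318, 293, 346, 324 and 377 CPM in parental tumors and 165, 215 and 258 CPM at the lowest, median and highest in 4T1-control tumors, without overlap, but replicate 1 alone gave 0.03. Very long transcripts and nuclear RNAs had a median of -0.16 over 14, with Birc6 (-0.57), Syne1 (-0.79), Ahnak (-0.48), Syne2 (-0.48), Macf1 (-0.46) and Dst (-0.42) lower at an unadjusted p under 0.05, against 4.67% of all genes. The median was -0.31 in replicate 1 alone and -0.02 in replicate 2 alone. In the shared pool Syne2 turned to 0.24 with replicate 2 alone and Dst to 0.18 with replicate 1 alone.

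Over the 45 lists together, 0 of 631 tested genes were called by edgeR and 52 (8.24%) were at an unadjusted p under 0.05, 13 higher and 39 lower, against 10.5% of all genes. List medians ran from -0.43 to 0.27, with 36 of the 45 within 0.2 of 0.

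**Figure D3:**
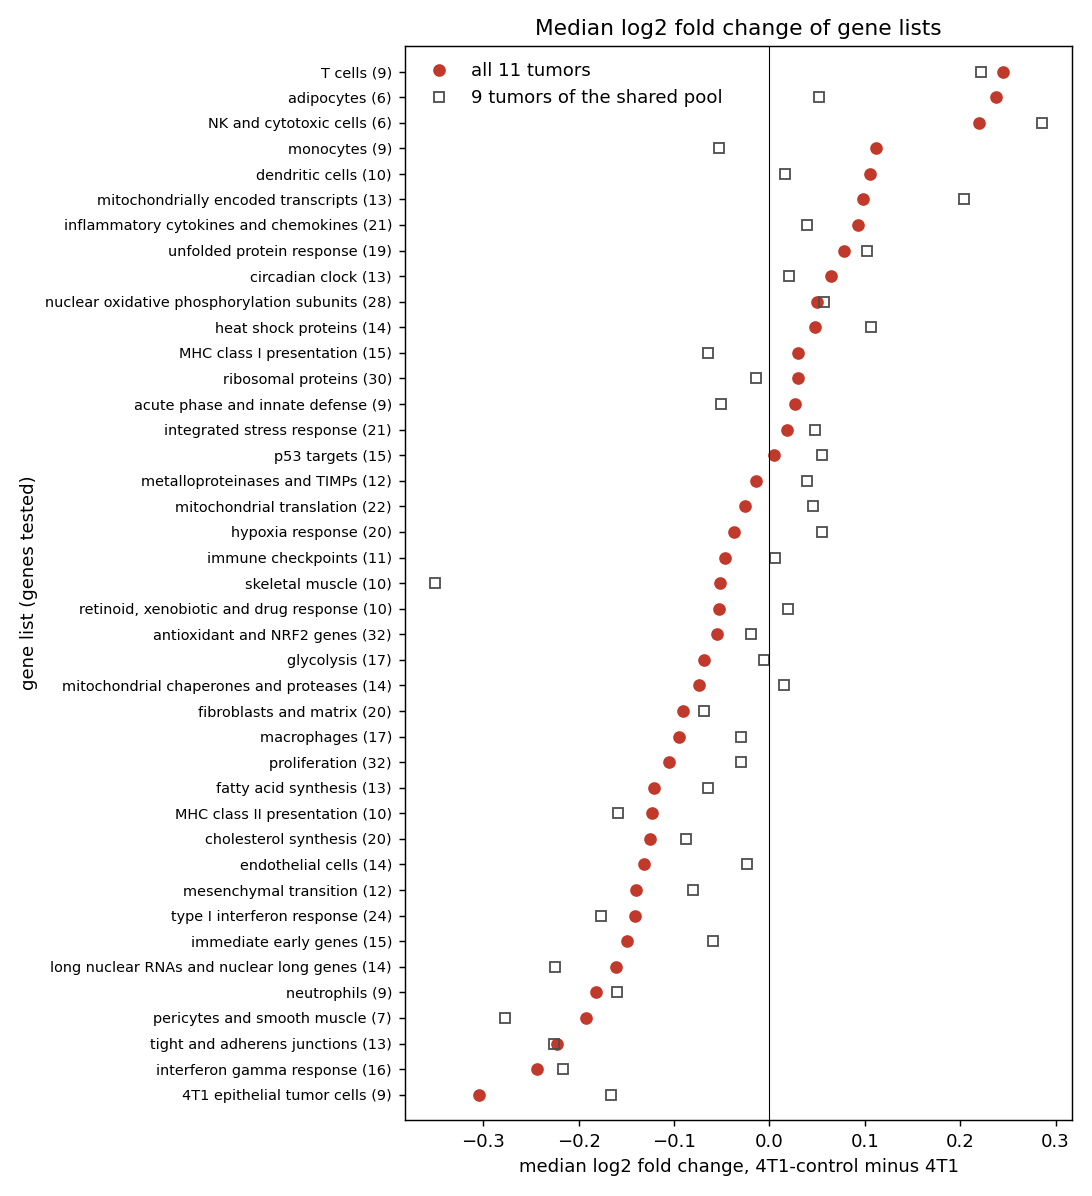
Median log2 fold change of 4T1-control over parental tumors for the 41 lists with at least 5 tested genes, over all tumors and within the shared sequencing pool. Most medians lie within 0.2 of 0, and the epithelial list is at -0.30 over all tumors and -0.17 in the shared pool.

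Within the shared pool edgeR called 1 of 12966 genes (0.00771%), with 935 at an unadjusted p under 0.05. In that pool the replicate 2 share was 6.31% to 21.6% in parental and 56.3% to 99.0% in 4T1-control tumors, without overlap. DESeq2 called 4 there, Glg1, Arpc1b and Eif5a lower and ENSMUSG00000105361 higher. The voom method called 51, 7 higher and 44 lower, with 2243 at an unadjusted p under 0.05. Cldn3 (adjusted p 0.0477), Rab25 (adjusted p 0.0316), Rpl18 (adjusted p 0.0477), Ntmt1 (adjusted p 0.0311) and Glg1 (adjusted p 0.0183) were among the lower ones and Selplg (adjusted p 0.0314) among the higher. The call by edgeR was ENSMUSG00000105361 (AY036118, chromosome 17, 39847113 to 39848035), a noncoding RNA annotated inside the ribosomal RNA gene ENSMUSG00000106106 (chromosome 17, 39846353 to 39848827) on the same strand. ENSMUSG00000105361 was 0, 75.7, 0.957, 0 and 0 CPM in the parental tumors and 23.7, 34.6 and 70.0 CPM at the lowest, median and highest in 4T1-control tumors. Parental tumor 2 exceeded every control tumor. The log2 fold change was 6.84 in the shared pool (adjusted p 2.5e-05, on parental tumors of which 2 had no count) and 1.35 (adjusted p 0.658) over all tumors. The surrounding ENSMUSG00000106106 ran the other way, at 551, 435, 264, 453 and 718 CPM in parental tumors and 81.4, 118 and 368 CPM in 4T1-control tumors. Its groups overlapped through control tumor 2, at a log2 fold change of -1.67 (adjusted p 0.132). Both loci were singled out after their values were seen, and how reads are divided between overlapping loci is uncertain.

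Gm38194 (ENSMUSG00000102307, chromosome 1, 195321283 to 195323493), another locus of class TEC, shared the smallest adjusted p with Glg1. It was 36.3, 41.6, 18.4, 31.6 and 23.9 CPM in parental tumors and 5.54, 8.60 and 15.9 CPM at the lowest, median and highest in 4T1-control tumors. The groups did not overlap, at a log2 fold change of -1.67 (SE 0.27, adjusted p 0.0593), -1.33 in the shared pool and -0.26 in the tumors with CAT-ABP. Over the 15 alternatives that left out no single tumor it ran from -1.99 to -0.37.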

How the data were processed

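The deposited table holds estimated counts, made by the authors from 3′ digital gene expression reads with a Smart-seq2 pipeline against GENCODE M21 (GRCm38); whether molecular identifiers were collapsed is not stated. Of the values above 0, 39.7% are not whole. Counts were summed over the technical replicates of a tumor and rounded. Genes were filtered with filterByExpr (minimum count 10, minimum total 15), scaled by TMM and tested with edgeR 4.0.16 (quasi-likelihood, Benjamini-Hochberg adjustment, threshold 0.05) in R 4.3.3. DESeq2 1.42.0 and limma 3.58.1 (voom, quality weights) were alternatives. Log2 levels for the principal components, library correlations and pairing of tumors used a prior count of 2. Log2 fold changes are those of the fitted models. Single measures had two-sided exact permutation tests (462 arrangements, smallest p 0.0022), adjusted over 6 measures. Tests were tried on simulated data.

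The rule for named genes took Cat, the called genes with the smallest p (up to 10 per direction; with fewer calls filled up to 5 by p and given as not called; no Gm, Rik or clone names), and in each list the called members or the most abundant one. Added after their values were seen were the other epithelial markers, list members at an unadjusted p under 0.05 and the genes the text says were so chosen. Members and the 45 lists were chosen with earlier results of these data known. Intervals cover counting error and spread between tumors only. Alternatives changed the tool, scaling, filter, model, replicate block, sequencing pool, technical libraries or left out single tumors.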

Additional observations from a re-analysis of the deposited data

Results flagged for a closer look

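A tumor was picked out where the gap between the highest or lowest value of its group and the next one, divided by the range of the group (Dixon's ratio), passed the 95% critical value. Of 192 groups of values examined, 17 had such a tumor (8.85%). Chance alone picks out about 1 in 20 groups, and 8 of the 17 came from the shallow control tumor 2, so a reader can rest little on any single one. The part of depth in them was not tested.

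Control tumor 2 had a total of 493086 counts, against 2671019 to 4569525 in the other control tumors. It was also lowest, and apart from the others, for Oas1g (13.5 CPM), Kdm3a (15.8), Gpx3 (2.26), Ier3 (6.77), Irf7 (0), Hmgcs1 (33.85) and Ifit2 (2.26). With so few counts a level of 0 does not show that Irf7 was absent.

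Control tumor 4 had the highest summed level of skeletal muscle markers, 780.4 CPM against at most 513 in the other control tumors, and control tumor 6 the highest Zeb1 level, 9.19 CPM against at most 5.19. Among parental tumors, number 5 was high for adipocyte markers (197 CPM, the others at most 85.1) and for Cldn3 (12.0 CPM, the others at most 9.84). Parental tumor 2 was low for Arpc1b (107 CPM, the others at least 135.9) and for Srebf1 (13.4 CPM, the others at least 17.0), and high for ENSMUSG00000105361 (75.7 CPM, the others at most 0.957). Parental tumor 4 was low for Krt19 (3.71 CPM, the others at least 6.96), and parental tumor 3 was high for H2-DMb1 (39.2 CPM, the others at most 28.1).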

How the results depend on the processing

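For 4T1-control against parental tumors the 0 calls of edgeR became 15 with DESeq2, 12 with voom, 130 with no filter on low counts (28489 genes tested), 10 in 1 model over all 7 groups, 14 with low-depth libraries left out (which drops control tumor 2), 1 in the shared pool and 1 in the shared pool with replicate 1 alone. With libraries as samples and technical replicate as covariate, an alternative chosen after seeing the data like those that combine the pool with 1 replicate, there were 2. Leaving out single tumors gave 0 to 6. Calls stayed at 0 with RLE size factors, a mean of at least 20 counts, the pool as covariate, either technical replicate alone, the shared pool with replicate 2 alone (419 to 1302 genes at an unadjusted p under 0.05) and the replicate block (1103 genes).

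For the tumors with CAT-ABP the 2 calls became 8 with DESeq2, 13 with no filter, 1 with a mean of at least 20 counts (Rab25), 5 with voom (Rab25, Rhox5, Esrp1, Gm28502 and Gm48765), 0 with the replicate block, 1 with technical replicate as covariate (Rab25) and 0 to 2 without single tumors. For the difference of the differences the 0 calls became 1 with DESeq2 (Gm21811), 3 with no filter (Gm21811, Gm7846 and Gm4739), 1 with voom (Gm21811) and 0 to 1 without single tumors. In the shared pool the 1 call became 4 with DESeq2, 51 with voom and 0 with replicate 2 alone, choices made after seeing the data.

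Of 74 named genes 55 kept their sign in every alternative in which they were tested, and leaving out single tumors reversed none of those tested. Only 60 were tested in all 15 alternatives that leave out no single tumor. With replicate 1 alone the log2 fold change turned to 0.16 for Arpc1b, 0.026 for Rpl18, 0.12 for Tap2, -0.23 for mt-Atp6, 0.42 for Por and 0.22 for Fasn. The pool as covariate gave 0.018 for Krt8, and the shared pool 0.051 for Krt8, 0.0073 for Krt18 and 0.015 for Cdh1. The shared pool with replicate 1 alone gave 0.024 for Arpc1b, 0.23 for Krt8, 0.028 for Krt18, 0.060 for Tap2, -0.40 for mt-Atp6, 0.065 for Irf7, -0.14 for Ms4a7, 0.16 for Por, 0.18 for Dst, 0.061 for Hmgcs1, -0.071 for Ccl7, 0.15 for Fasn, -0.11 for Ccl12 and -0.071 for Slpi. The shared pool with replicate 2 alone gave 1.13 for Oas1g, 0.079 for Irf7, 0.24 for Syne2, 0.91 for Por and 0.40 for P4ha1. With technical replicate as covariate Oas1g was 0.067, mt-Atp6 -0.28 and Por 0.053. The cause was not tested. The difference in the mitochondrial share turned to -0.197 points with replicate 1 alone and that in log2 total count to 0.96 with replicate 2 alone, splits also chosen after seeing the data.

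Replicate numbers did not pair tumors. Over 5 pairs the correlation of residuals ran from -0.11 to 0.17, and 1 tumor matched best with its own number. Counts under about 20 per tumor, as for Cldn3, Dsc2 and Krt19, limit the precision of single genes, and the depth of control tumor 2 limits every level given for it.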
